A study of Homo sapiens and Mus musculus with 100 samples.

Results

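The genes described here are 56 nuclear genes that encode subunits of complexes I to IV of the mitochondrial respiratory chain. They were chosen by symbol, with earlier results of these data known. They comprise 33 genes of complex I, 4 of complex II, 9 of complex III and 10 of complex IV. All 56 have a row in each of the 6 human tables, and 55 have one in the 2 mouse tables, where Ndufb1 is not listed. Every member with a row passed the filter on low values in every table.

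The respiratory chain carries electrons from NADH and succinate to oxygen in the inner mitochondrial membrane and pumps protons that drive ATP synthesis. Complex I takes electrons from NADH through FMN bound by NDUFV1, and complex II takes them from succinate through FAD bound by SDHA. FMN and FAD are made from riboflavin (vitamin B2), so these subunits carry the cofactor that the vitamin supplies. Complex III passes electrons from ubiquinol to cytochrome c, and complex IV passes them to oxygen. The remaining subunits of these complexes are encoded in mitochondrial DNA and were not analysed here.

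The study measured mRNA in cultures and mice with control or vitamin B2-deficient supply, labelled B2_minus. HepG2, a human hepatoma line, gave control and B2_minus libraries at days 3, 6, 9 and 12. Further day 12 experiments compared HepG2 with and without an AhR inhibitor (EX2), with and without an IDO/TDO inhibitor (EX3), with a control or an AhR gRNA, and after DMSO or Kyn with and without the AhR inhibitor (EX4, in which the labels name no B2 deprivation). AhR is a ligand-activated transcription factor, and IDO and TDO are the enzymes that start kynurenine synthesis from tryptophan. Caco-2, a human colon carcinoma line, was sampled at day 9. Mouse hepatocytes carrying floxed AhR (AhR_flox) were labelled Ad-Cont or Ad-Cre, in control or B2_minus form at 4 weeks; Cre is a recombinase that removes floxed DNA. Whole mouse liver was sampled in control and B2_minus form, also at 4 weeks. Each cell group has 3 libraries. The liver table has 4 columns for each diet against 10 labelled samples. Its column names give an archive run and the diet but not the sample. Column names of the cell libraries give no archive run and carry a trim label that the liver columns lack. The labels do not state separate cultures or animals behind the replicates, so p-values measure the spread between these libraries, which may be technical.

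Total reads recovered from the deposited values ranged from 4049500 to 19644100 per library. The 8 hepatocyte markers were each at a mean of at least 1 TPM in every HepG2, hepatocyte and liver group, and 5 of 8 enterocyte markers were in Caco-2. AHR itself was at 4.37 to 6.51 TPM in control medium with the control gRNA and at 4.48 to 4.88 TPM with the AhR gRNA, which overlap. The reads come from transcript 3′ ends, so this level does not check an edit in the gene. In mouse hepatocytes of the control form, Ahr was at 9.32 to 10.04 TPM with Ad-Cont and 7.14 to 8.29 TPM with Ad-Cre (log2 fold change -0.28, limma adjusted p = 0.494). The position of the floxed exon is not given in the sources used here.

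Promoter sequence was available from RefSeq (GRCh38.p14) for 49 of the 56 human members, as 250 bases before and 50 after each start. It is shown because ETS and NRF1 factors are known regulators of respiratory chain genes. Their part in the comparisons that follow was not tested. The windows of 60 bases below lie before the RefSeq start and read 5′ to 3′ on the gene's strand; the deposited annotation puts the starts of NDUFS6, NDUFB7 and COX8A within the last bases of their windows. Capitals mark CCGGAAG or its reverse complement CTTCCGG (ETS) or GCATGCGC or its reverse complement GCGCATGC (the core of the NRF1 motif).
NDUFS6, complex I, chr5:1801335-1801394, plus strand: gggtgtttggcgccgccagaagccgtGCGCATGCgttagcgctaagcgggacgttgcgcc
NDUFB7, complex I, chr19:14572067-14572126, minus strand: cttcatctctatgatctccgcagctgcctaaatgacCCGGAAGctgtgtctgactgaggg
NDUFS7, complex I, chr19:1383808-1383867, plus strand: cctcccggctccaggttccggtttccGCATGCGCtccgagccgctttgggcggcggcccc
COX8A, complex IV, chr11:63974560-63974619, plus strand: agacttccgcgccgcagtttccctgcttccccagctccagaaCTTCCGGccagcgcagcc
Searched on both strands, the ETS letters were in 15 of 49 member promoters (30.6%), against 10.7% of all 27305 promoters and 20.1% of the 9257 with a gene tested in the HepG2 time course. The NRF1 letters GCATGCGC were in 9 members (18.4%), against 3.3% of all promoters and 5.8% of those of tested genes. The YY1 letters AAGATGGCG were in 7 members (14.3%), against 1.8% and 4.3%, and the SP1 letters GGGCGGGG in 12 (24.5%), against 22.9% and 38.6%. None of these letter sets contains another. A match is a description of these letters in this window. At day 12 of B2 deprivation the median log2 fold change was 0.53 for the 15 members with the ETS letters and 0.54 for the 34 without them. It was 0.55 for the 9 members with the NRF1 letters and 0.52 for the 40 without. For YY1 it was 0.56 for the 7 with and 0.53 for the 42 without, and 0.68 for the 12 with the SP1 letters and 0.51 for the 37 without. These medians were not tested against each other.

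In HepG2, most respiratory chain genes were at higher levels in B2-deprived than in same-day control cells from day 9. At day 12, 48 of 56 members were higher in deprived cells and 1 was lower, at a limma adjusted p under 0.05 on log2(TPM + 1). Over all genes tested, 34% were higher and 18.4% lower. The members' median log2 fold change was 0.54, against 0.1 over all tested genes. The count of members grew over the course. At day 3, 0 were higher and 1 was lower (background 2.74% and 2%; 3 members were higher and 3 lower at an unadjusted p under 0.05). At day 6, 17 were higher and 3 lower (19% and 14%), and at day 9, 41 were higher and 1 lower (29.4% and 19.7%). Tested directly, the signed log2 fold change of B2 deprivation was higher at day 12 than at day 3 for 44 members and lower for 0 (23.8% and 13.9% of all genes). It was higher than at day 6 for 37 members and lower for 0 (20.4% and 11.9%).

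**Figure D1:**
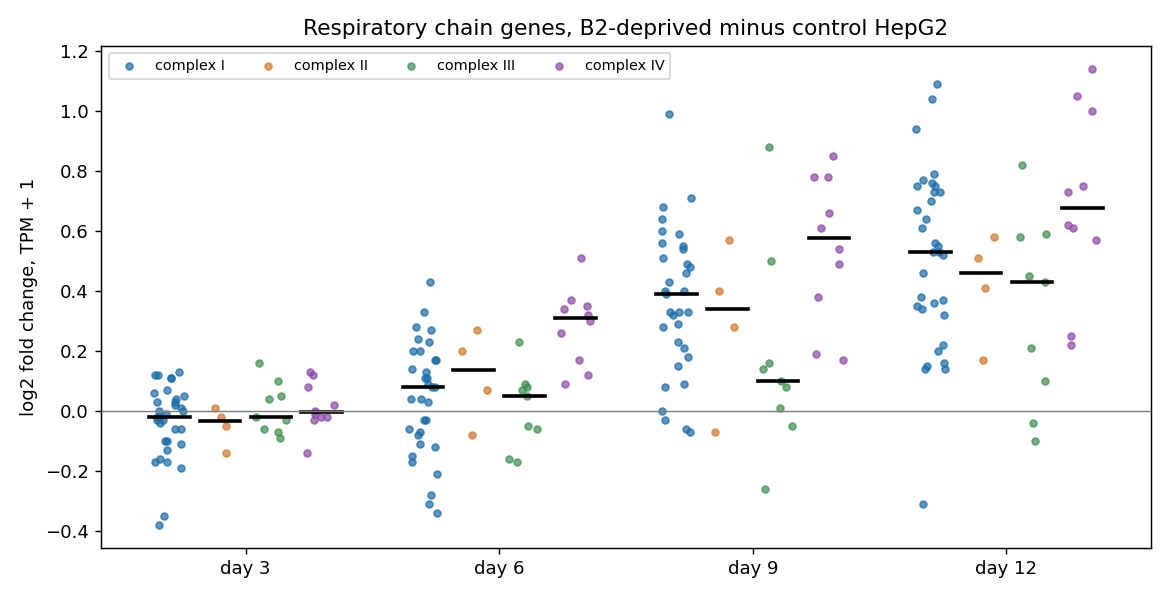
Log2 fold change (TPM + 1) of B2-deprived minus control HepG2 at each day, 1 point per member, grouped by complex; black bars are medians. The medians of complexes I and IV are 0.53 and 0.67 at day 12, and at day 3 all members lie between -0.38 and 0.16.

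The level in control cultures fell between days 3 and 12. Mean log2(TPM + 1) over the 56 members was 6.36 to 6.39 in the 3 control libraries at day 3 and 5.83 to 5.87 at day 12. In deprived libraries it was 6.32 to 6.37 at day 3 and 6.33 to 6.38 at day 12. The control groups of these days do not overlap, while the deprived groups do. From day 3 to day 12, 45 members fell and 1 rose in control cells (46.8% and 20.1% of all genes). In deprived cells 18 fell and 17 rose (35.3% and 14.4%). With every library scaled to its median, 4 members fell and 26 rose, and the share of all genes under that scaling is not given here. These comparisons share the libraries of the B2 effect at days 3 and 12.

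**Figure D2:**
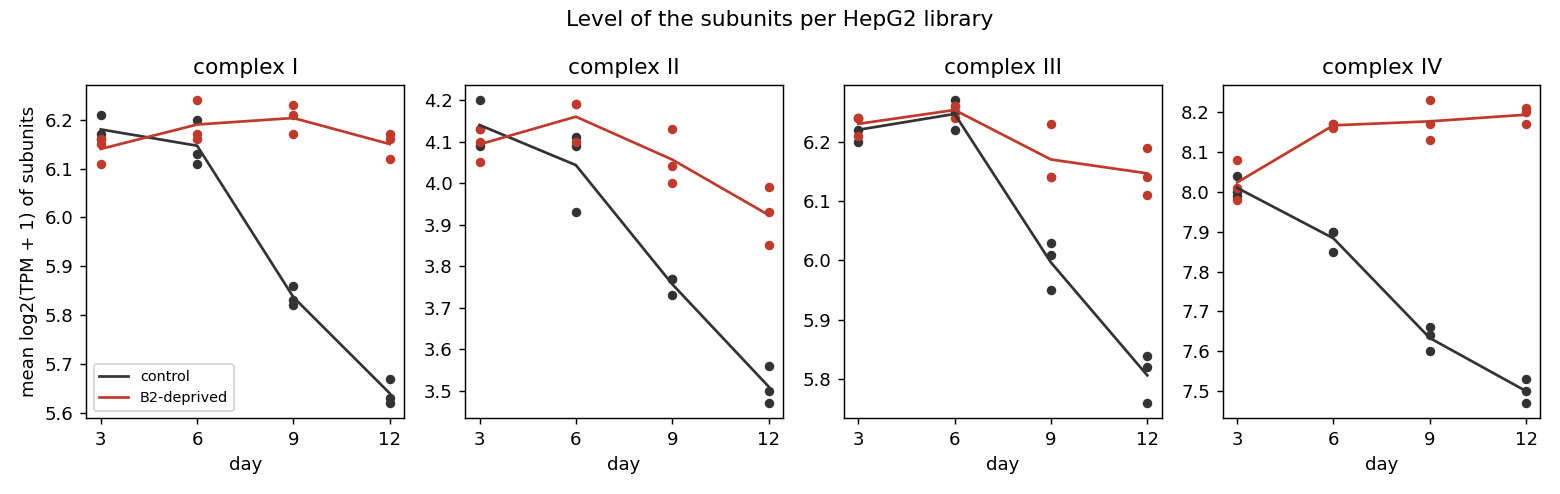
Mean log2(TPM + 1) of the subunits of each complex against day, 1 point per library, with lines through the group means. The control libraries of complex I go from 6.16 to 6.21 at day 3 to 5.62 to 5.67 at day 12, while deprived libraries at day 12 are at 6.12 to 6.17.

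Complex I takes in most of the members. At day 12, 29 of its 33 genes were higher and 1 was lower. NDUFV1, the FMN-binding subunit, was at 13.61, 10.39 and 12.88 TPM in control libraries and at 21.78, 22.39 and 18.88 TPM in deprived libraries at day 12. The groups do not overlap (log2 fold change 0.73, SE 0.09, limma adjusted p = 4.67e-07), and NDUFV1 ranked 9 of 33 in its complex. NDUFB3, an accessory subunit of the membrane arm, was at 26.54, 30.75 and 27.16 TPM in control and at 59.47, 61.89 and 61.53 TPM in deprived libraries (1.09, SE 0.07). At day 3 its control libraries were at 69.43 to 72.13 TPM, so that control cells moved away from the early level. NDUFS5, another accessory subunit, had a log2 fold change of 1.04. NDUFB1 went the other way, at 233.73, 232.05 and 221.75 TPM in control and 191.72, 175.72 and 188.04 TPM in deprived libraries (-0.31, limma adjusted p = 0.00036). It was also lower at day 3 (-0.35), where it was the 1 member past the threshold.

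In complex II, 3 of 4 genes were higher at day 12. SDHA, the FAD-binding subunit, was at 7.55, 9.72 and 9.23 TPM in control and 10.06, 10.73 and 9.31 TPM in deprived libraries. These groups overlap, and the difference did not pass the threshold (0.17, SE 0.09, limma adjusted p = 0.128). SDHB, the iron-sulfur subunit, was higher (0.58). SDHA had the lowest fold change of the 4 genes at days 9 and 12.

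In complex III, 6 of 9 genes were higher and 0 lower at day 12 by limma. UQCR11, a small accessory subunit, was at 83.93 to 86.81 TPM in control and 150.49 to 152.39 TPM in deprived libraries at day 12 (0.82), and UQCR10, another small subunit, had a fold change of 0.59. UQCRC2, a core subunit, was at 80.47 to 90.51 TPM in control and 78.97 to 83.74 TPM in deprived libraries (-0.10, limma adjusted p = 0.17). The 1 member of any complex that was lower at an unadjusted p under 0.05 was NDUFB1, where 20.4% of all genes were lower.

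All 10 genes of complex IV were higher at day 12. COX8A, a small membrane subunit, was at 272.35, 258.06 and 266.98 TPM in control and at 582.86, 584.12 and 593.06 TPM in deprived libraries. The groups do not overlap (1.14, SE 0.05, limma adjusted p = 7.38e-15). COX7B, also a small membrane subunit, followed with 1.05. The lowest of the complex was COX7C with 0.22. At day 6, 7 of its 10 genes were higher, beside 7 of 33 for complex I and 19% of all genes.

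Related gene groups were measured beside the members at day 12, where 34% of all genes were higher and 18.4% lower. Of 16 ATP synthase genes, 11 were higher and 1 was lower, with ATP5MC1 at 1.06 and ATP5MC2 at -0.40, both of which encode the membrane ring subunit. Of 16 complex I assembly genes 13 were higher and 1 lower, with TMEM126B at 0.91 and COA1 at -0.59. Of 31 assembly genes for complexes II to IV, 17 were higher and 4 lower, with UQCC2 at 1.37. Of 4 flavoprotein genes tested that pass electrons to ubiquinone, 2 were higher and 2 lower: SQOR, which oxidises sulfide, was higher (1.59), while ETFDH (-0.63) and CHDH (-0.76) were lower. Of 11 regulators of mitochondrial biogenesis tested, 3 were higher and 0 lower, including TFAM, the mitochondrial DNA packaging factor, at 0.30.

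Other values moved with the same groups. The summed TPM of the 8 hepatocyte markers was 25197 to 26394 in control and 7109 to 7465 in deprived libraries at day 12, against 6474 to 6529 and 5583 to 5920 at day 3. The TPM listed per library summed to 389047 to 397182 in control and 368224 to 370980 in deprived libraries at day 12. Their part in the members' differences was not tested.

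The day 12 comparison was repeated in EX2, EX3 and the control gRNA cells, with libraries of their own. Without an inhibitor, 36 members were higher and 3 lower in EX2 (44.6% and 16.9% of all genes), 42 and 1 in EX3 (53.6% and 14.3%), and 44 and 2 with the control gRNA (43.6% and 17.1%). Counting the time course, 34 of 56 members (60.7%) were higher in all 4 experiments, against 25.9% of the 11087 genes tested in all 4. This rests on the scale: with libraries scaled to their medians 9 members (16.1%) were higher in all 4, against 14.9% of all genes, and after quantile normalization 20 (35.7%), against 15.6%. Those 9 members include NDUFV2, NDUFB3, COX7B and COX8A. All tested genes had a median log2 shift of 0.23 in EX2, 0.3 in EX3 and 0.2 with the control gRNA. Under median scaling the split of members was 13 higher and 14 lower in EX2, 17 and 10 in EX3, and 26 and 8 with the control gRNA, against 44 and 2 in the time course. For these and the rescaled counts below, the share of all genes under that scaling is not given unless printed beside them. Such counts therefore do not set the members against all genes.

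Across the 56 members, Pearson's r between the log2 fold changes of pairs of experiments was 0.77 to 0.84, and it was 0.74 to 0.87 across all genes tested in both. Genes are not independent replicates, and these values are descriptions. COX7B was at 116.1 to 123.65 TPM in control and 197.92 to 212.93 TPM in deprived EX2 libraries (0.76), and at 101.42 to 121.26 and 214.72 to 218.44 TPM in EX3 (0.99). NDUFV1 was higher in both (0.44 and 0.73). SDHA did not pass the threshold in any of the 4 experiments, with values of -0.15 in EX2, 0.18 in EX3 and -0.04 with the control gRNA. UQCRC2 was lower in EX2 (-0.35) and with the control gRNA (-0.30).

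**Figure D3:**
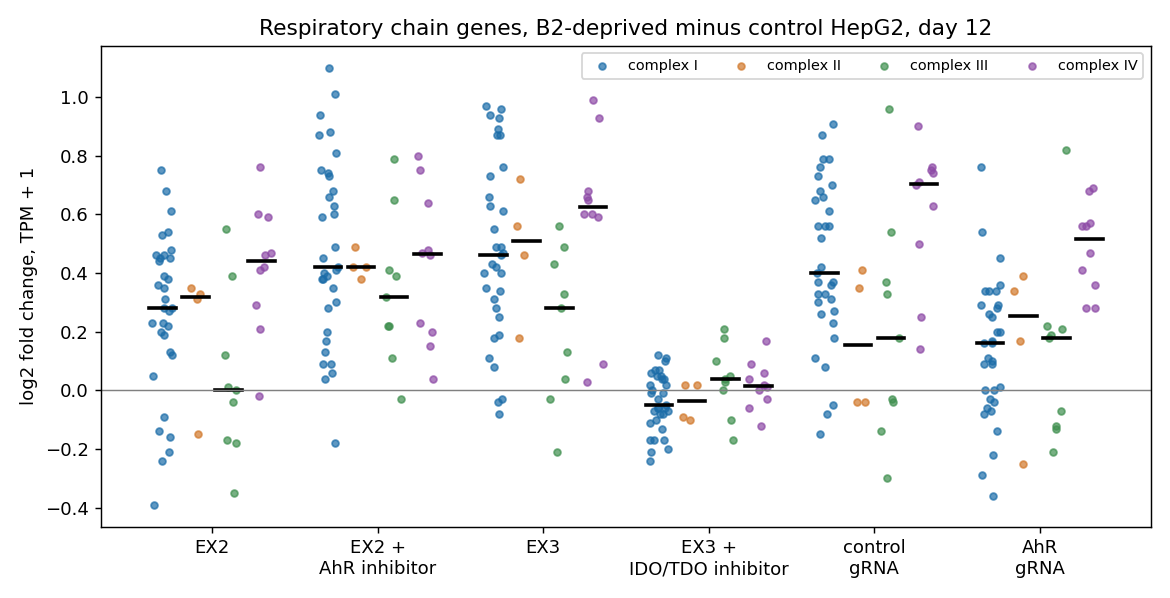
Log2 fold change (TPM + 1) of B2-deprived minus control HepG2 at day 12, 1 point per member, grouped by complex, with black bars at medians. Members lie between -0.24 and 0.21 with the IDO/TDO inhibitor and reach 0.99 in EX3 without it.

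With the IDO/TDO inhibitor, no member passed the test between deprived and control cells. The limma count was 0 higher and 0 lower (background 0.854% and 0.532%). At an unadjusted p under 0.05, 3 members were higher and 6 lower, against 8.0% and 4.5% of all genes. NDUFV2, which binds an iron-sulfur cluster beside the FMN site, was at 25.52, 31.1 and 30.27 TPM in control and 57.2, 57.26 and 57.18 TPM in deprived EX3 libraries without the inhibitor. With it, control libraries were at 30.34, 30.7 and 31.98 TPM and deprived libraries at 31.79, 31.95 and 30.55 TPM, which overlap. Tested as an interaction, the signed log2 fold change of B2 deprivation was lower with the inhibitor for 41 members and higher for 2 (41.5% and 12.2% of all genes). Members where it was lower included NDUFS7 (-1.18), NDUFA7 (-1.06) and NDUFV2 (-0.94), and those where it was higher were UQCRFS1 (0.39) and UQCRC2 (0.25). UQCRFS1, the iron-sulfur subunit of complex III, had -0.21 without the inhibitor and 0.18 with it. With median scaling the split was 15 and 6. In control medium the inhibitor changed 0 members (0.00872% of all genes were higher and 0% lower). At an unadjusted p under 0.05, 1 member was higher there, against 2.0% of all genes. The hepatocyte marker sum followed the same order, with 26322 to 27714 TPM in control, 7443 to 7703 in deprived and 23958 to 24769 in deprived libraries with the inhibitor, and its part was not tested.

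With the AhR inhibitor (10 uM in the column headers), 45 members were higher in deprived cells and 0 lower (45.1% and 12.4%). At an unadjusted p under 0.05, 1 was lower, against 13.8% of all genes. The split was 20 and 5 with median scaling and 31 and 2 after quantile normalization. NDUFV1 was at 13.26, 8.78 and 7.48 TPM in control and at 21.63, 23.21 and 16.56 TPM in deprived libraries with the inhibitor (1.01). SDHA was higher here (0.42, limma adjusted p = 0.0019). The signed log2 fold change of B2 deprivation was higher with the inhibitor for 16 members and lower for 0 (12.9% and 9.57%), led by CYC1, the cytochrome c1 gene (0.82), and NDUFS7 (0.72). For some of these the fold change was negative without the inhibitor: NDUFB1 had -0.39 without it and 0.06 with it, and UQCRC2 had -0.35 and 0.22. The 16 became 10 without the EX2 control replicate 1 or the deprived replicate 2. The inhibitor libraries carry another directory and date in the column headers than those without it, and they held 12577600 to 19427800 reads, against 5891600 to 8975800 without it. The inhibitor and whatever else differed between these sets of libraries cannot be told apart in this interaction.

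In control medium, 34 of 56 members were higher and 2 lower with the AhR gRNA than with the control gRNA (23.3% and 13.4% of all genes), with 24 of 33 in complex I and 4 of 10 in complex IV. The split was 28 and 3 with median scaling and 29 and 5 after quantile normalization. NDUFS6, an accessory subunit of the matrix arm of complex I, was at 167.3, 164.58 and 153.85 TPM in control medium with the control gRNA, and at 245.02, 228.15 and 223.64 TPM with the AhR gRNA. Deprived libraries were at 230.55 to 243.96 TPM with the control gRNA and 212.81 to 232.42 TPM with the AhR gRNA. Only the first of these 4 groups is set apart from the others. NDUFB7, a complex I subunit of the membrane arm, was at 49.08 to 56.88 TPM in that first group and at 96.32 to 114.15 TPM with the AhR gRNA in control medium (0.97).

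The signed log2 fold change of B2 deprivation was lower with the AhR gRNA for 23 members and higher for 0 (8.23% and 6.16%). These were 19 of 33 genes in complex I, 0 of 4 in complex II, 1 of 9 in complex III and 3 of 10 in complex IV. At an unadjusted p under 0.05 the fold change was higher for 2 members, against 11.3% of all genes. NDUFB7 (-0.78), NDUFS6 (-0.61) and NDUFS5 (-0.53) had the lowest values, and NDUFV1 had -0.40 (limma adjusted p = 0.0268). NDUFB10, an accessory subunit of complex I, went from 0.08 with the control gRNA to -0.36 with the AhR gRNA. The count was 18 with median scaling and 16 after quantile normalization. Within AhR gRNA cells, 31 members were higher and 4 lower in deprived cells (37.6% and 15.6%), all 10 genes of complex IV among the 31. With median scaling the split was 14 and 14, and after quantile normalization 22 and 9. COX6B1, a complex IV subunit facing the intermembrane space, was at 301.19 to 342.15 TPM in control and 421.07 to 435.34 TPM in deprived AhR gRNA libraries. The hepatocyte marker sum was 24304 to 24842 TPM in control medium with the control gRNA and 19090 to 20192 TPM with the AhR gRNA, and its part was not tested.

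**Figure D4:**
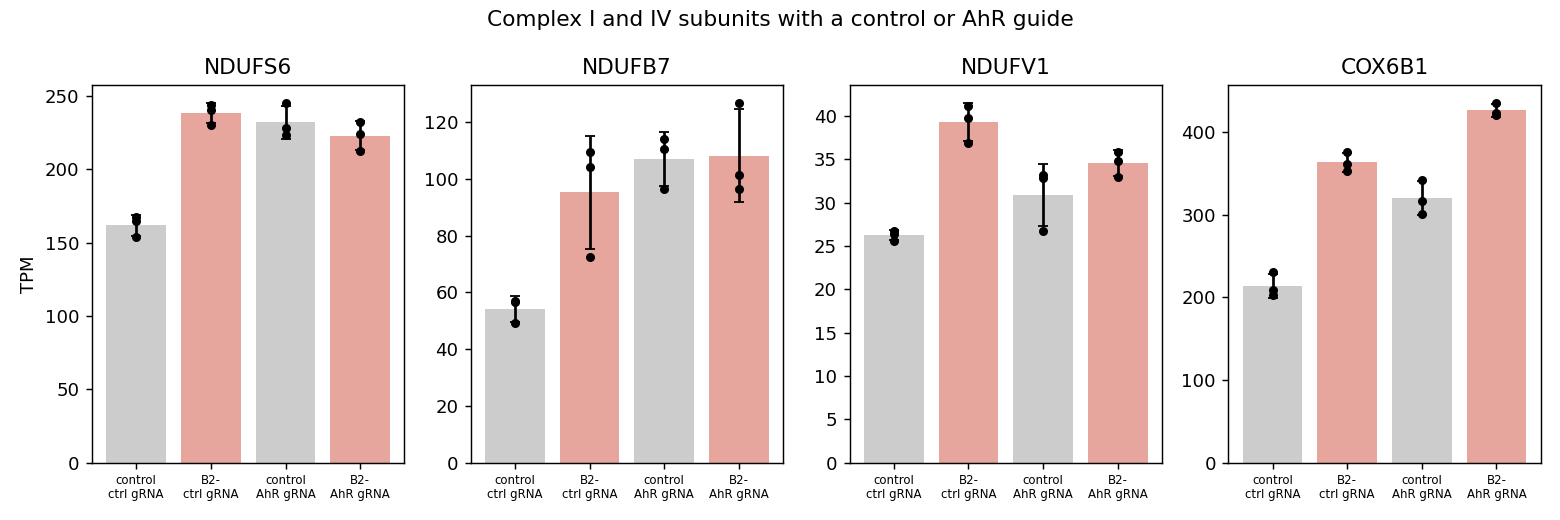
TPM of 4 subunits in HepG2 at day 12, with bars at the mean of 3 libraries, error bars of 1 SD and 1 point per library; grey bars are control medium and red bars B2-deprived. NDUFS6 is at 153.85 to 167.3 TPM in control medium with the control gRNA and at 212.81 TPM or above in the other groups.

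Kyn, as the labels name the treatment, was tested against DMSO. Kyn raised 16 members and lowered 1 (6.11% and 5.54% of all genes), of which 14 raised genes are in complex I. NDUFA2, an accessory subunit of complex I, was at 102.3, 101.76 and 96.22 TPM with DMSO and at 139.57, 143.08 and 142.73 TPM with Kyn. The groups do not overlap (0.50, SE 0.06, limma adjusted p = 7.51e-05). CYC1 was lower, at 66.1 to 78 TPM with DMSO and 48.81 to 60.97 TPM with Kyn (-0.41). NDUFV1 (0.03) and SDHA (-0.01) did not pass the threshold. The 17 members past the threshold became 11 without DMSO replicate 2 or Kyn replicate 3. With the AhR inhibitor present, Kyn raised 0 members and lowered 1 (1.74% and 9.1%). The unadjusted p was under 0.05 for 6 higher and 6 lower members, against 4.5% and 21.5% of all genes. The signed log2 fold change of Kyn was lower with the inhibitor for 8 members and higher for 0 (6.83% and 2.11%), but with median scaling it was lower for 1 and higher for 2. The count of 8 became 3 to 5 without DMSO replicate 1 or 2, DMSO with inhibitor replicate 1 or 2, Kyn replicate 3 or Kyn with inhibitor replicate 1. The inhibitor with DMSO changed 0 members, and 0% of all genes in either direction by limma. At an unadjusted p under 0.05, 2 members were higher, against 2.0% of all genes.

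In Caco-2 the members that passed the test were lower. At day 9 of deprivation 0 members were higher and 33 lower (14.3% and 19.5% of all genes). The lower members were 24 of 33 genes in complex I, 1 of 4 in complex II, 5 of 9 in complex III and 3 of 10 in complex IV. At an unadjusted p under 0.05, 1 member was higher, against 18.2% of all genes. NDUFB7 was at 49.61, 53.45 and 55.8 TPM in control and 34.86, 28.14 and 29.36 TPM in deprived libraries, which do not overlap (-0.77, SE 0.09, limma adjusted p = 9.83e-05). NDUFA7 (-0.61), NDUFA11 (-0.60) and NDUFA13 (-0.60), accessory subunits of complex I, had the next lowest values. NDUFV1 (-0.26, limma adjusted p = 0.0655) and SDHA (-0.08) did not pass. COX8A, the member with the highest HepG2 value at day 12, was at 691.77 to 728.16 TPM in control and 661.45 to 730.62 TPM in deprived Caco-2 libraries, which overlap. Scaled to library medians, 13 members were lower, against 15.7% of all genes. Without the deprived replicate 1 the count was 20, and without the deprived replicate 3 it was 21. Of 16 ATP synthase genes, 13 were lower, against 19.5% of all genes. The enterocyte marker sum was 139 to 148 TPM in control and 84.2 to 90.8 TPM in deprived libraries, and its part was not tested. The difference between the cell lines was not tested, since the tables were normalized separately.

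**Figure D5:**
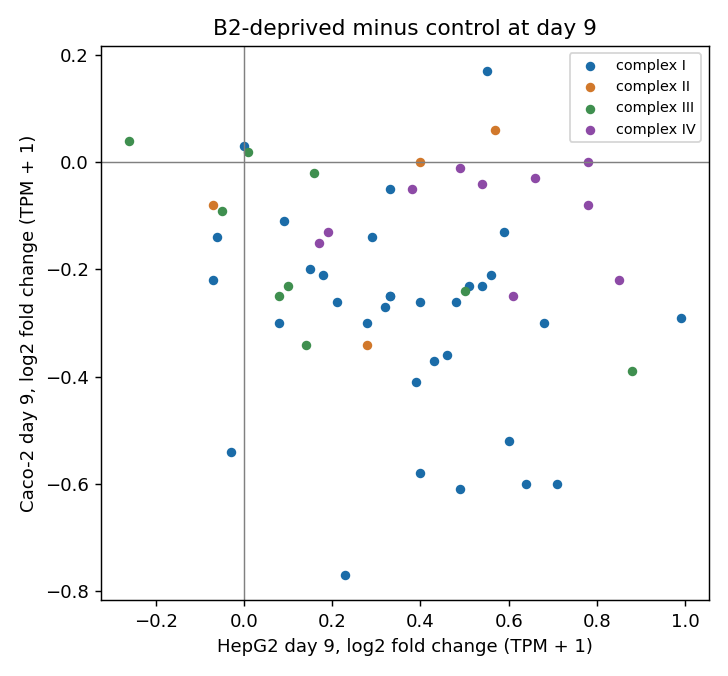
Log2 fold change (TPM + 1) at day 9 in Caco-2 against that in HepG2, 1 point per member, coloured by complex. Across the 56 members Pearson's r is -0.16, and it is 0.11 across the 10642 genes tested in both. HepG2 values of the members reach 0.99 and Caco-2 values go down to -0.77.

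In mouse hepatocytes with Ad-Cont, 1 of 55 members was higher and 4 lower in the B2_minus form (4.32% and 5.46%). Ndufv3, a small subunit beside the FMN site, was at 104.98, 100.3 and 105.64 TPM in control and 132.8, 132.72 and 124.4 TPM in B2_minus libraries (0.32, limma adjusted p = 0.00135). The lower genes were Ndufb7 (-0.29), Cox4i1 (-0.27), Ndufa5 (-0.26) and Ndufb8 (-0.18). Their count was 0 without the control replicate 1, 1 without the control replicate 3 or the B2_minus replicate 2 or 3, and 2 without the control replicate 2. The summed TPM of cholangiocyte markers was 833 to 931 in control and 256 to 589 in B2_minus libraries, and that of stellate or fibroblast markers 35 to 41.3 and 12.8 to 24.5. With Ad-Cre these sums were 924 to 1116 and 658 to 759 for cholangiocyte markers and 44.1 to 49.1 and 28.9 to 33.6 for stellate or fibroblast markers. Their part in the members' values was not tested. In the control form, Ad-Cre changed 0 members by limma (0.0165% of all genes higher and 0.00823% lower). The unadjusted p was under 0.05 for 0 higher and 4 lower members, against 3.4% and 4.8% of all genes. With Ad-Cre, 0 members were higher and 0 lower in the B2_minus form (0.214% and 0.115%). The unadjusted counts were 4 and 1, against 4.5% and 5.6% of all genes. The interaction passed limma's threshold for 0 members (0.181% and 0.0658%). Its unadjusted counts were 12 and 1, against 6.4% and 6.8% of all genes.

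In mouse liver after 4 weeks, 0 of 55 members were higher and 0 lower (2.25% and 1.16%). At an unadjusted p under 0.05 both counts were also 0, against 21.0% of all genes higher and 4.5% lower. Sdha was at 123.65 to 167.22 TPM in control and 153.26 to 212.66 TPM in B2_minus columns, which overlap (0.29, SE 0.14, limma adjusted p = 0.221). Ndufv1 was at 96.94 to 118.64 TPM and 96.46 to 137.1 TPM (0.16, SE 0.13). In bulk samples, fewer cells of a type and less RNA per cell cannot be told apart.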

How the data were processed

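The authors deposited 8 tables of TPM per gene (6 human, 2 mouse) with 98 library columns, all of which were used. A QuantSeq 3′ kit was used for the libraries, per the labels' protocols; whether this holds for liver is not given in the sources used here. Of upstream tools, the submitters' processing notes name STAR, HOMER, Bowtie2 and the builds hg38 and mm10 without their roles. Since 3′ reads do not scale with transcript length, TPM is not compared between genes. Values below 20 reads were whole multiples of 1 read within 0.1 of a read, which gave the depths.

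Genes at 1 TPM or more in at least as many libraries as the smallest group holds were tested on log2(TPM + 1) with limma 3.58.1 in R 4.3.3 (group means per table, trend and robust variance, two-sided, Benjamini-Hochberg over all tested genes, threshold 0.05). The test was also run on simulated data, whose outcome is not given here. Fold changes understate changes of low genes. Alternatives were quantile normalization, median scaling, a pseudocount of 0.1, no filter, a replicate block and leaving out each library. Named genes are NDUFV1, SDHA and the members at both ends of the fold changes that passed, plus the extremes of each complex and of related lists. NDUFS6 and COX6B1 in the gRNA cells and COX8A in Caco-2 were described after their values were seen. Members and lists were chosen with earlier results of these data known. NDUFA3 and NDUFA6 have several annotated copies and UQCRH shares reads with UQCRHL, so their values are uncertain.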

Additional observations from a re-analysis of the deposited data

Results flagged for a closer look

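Several results were singled out because the signed log2 fold change of a treatment differed between groups by a test of the difference itself, with limma. Between days 12 and 3 of B2 deprivation in HepG2, it was higher at day 12 for 44 members, among them NDUFB7 (1.33), NDUFB3 (1.28), COX6B1 (1.14) and NDUFV1 (0.83). Between days 12 and 6 it was higher at day 12 for 37 members, among them NDUFB3 (1.21), NDUFV2 (0.91), NDUFS5 (0.81) and NDUFV1 (0.62).

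With the AhR inhibitor the log2 fold change of B2 deprivation was higher for 16 members, among them CYC1 (0.82), NDUFS7 (0.72), NDUFA3 (0.68) and SDHA (0.56), in libraries with another directory and date in the column headers. With the IDO/TDO inhibitor it was lower for 41 members, among them NDUFS7 (-1.18), NDUFA7 (-1.06), NDUFV2 (-0.94) and NDUFV1 (-0.66), and higher for 2, UQCRFS1 (0.39) and UQCRC2 (0.25).

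With the AhR gRNA the log2 fold change of B2 deprivation was lower for 23 members, among them NDUFB7 (-0.78), NDUFS6 (-0.61), NDUFS5 (-0.53) and NDUFV1 (-0.40). With the AhR inhibitor the log2 fold change of Kyn was lower for 8 members, among them NDUFA2 (-0.58), NDUFB3 (-0.52) and NDUFS7 (-0.51).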

How the results depend on the processing

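Of the 48 higher calls at day 12 in the time course, 41 held under every planned setting and without any 1 library, and of the 17 at day 6, 10 did. Counts of higher members fell with median scaling to 13 in EX2, 20 in EX2 with the AhR inhibitor, 17 in EX3, 26 with the control gRNA and 14 with the AhR gRNA. Counts of lower members with median scaling were 5 at day 6, 2 at day 12, 14 in EX2, 5 in EX2 with the AhR inhibitor, 10 in EX3, 8 with the control gRNA, 14 with the AhR gRNA, 13 in Caco-2 and 2 in Ad-Cont hepatocytes. With quantile normalization they were 2 at day 9, 2 at day 12, 12 in EX2, 2 in EX2 with the AhR inhibitor, 7 in EX3, 7 with the control gRNA and 9 with the AhR gRNA. Without the filter they were 21 in Caco-2 and 1 with the control gRNA. Members past the threshold numbered 21 with median scaling for the IDO/TDO interaction, and 11 for Kyn both with median scaling and with no filter. For Kyn with the AhR inhibitor they numbered 6 with median scaling, 0 with no filter, 2 with a pseudocount of 0.1 and 3 with quantile normalization. For the interaction of Kyn and inhibitor they numbered 3 with median scaling, 3 with no filter and 4 with quantile normalization. The cause was not tested.

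Among the named genes, those that reversed were, with median scaling, NDUFA1 (-0.02) and UQCRC2 (-0.07) in EX2 with the AhR inhibitor, NDUFB10 in EX3 (-0.17) and with the control gRNA (-0.15), UQCR10 in EX2 (-0.24) and with the control gRNA (-0.05), and UQCRHL in EX3 (-0.01). With quantile normalization they were NDUFB10 in EX3 (-0.06) and UQCR10 in EX2 (-0.16) and with the control gRNA (-0.00).

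Leaving out 1 library gave 0 to 1 higher and 20 to 27 lower members in Caco-2, 2 to 5 lower in EX2, 0 to 2 lower in EX3, 1 to 2 lower with the control gRNA and 0 to 5 lower in Ad-Cont hepatocytes. Members past the threshold ranged from 10 to 19 for the AhR inhibitor interaction (10 without the EX2 control replicate 1 or the deprived replicate 2), 0 to 2 for the Ad-Cre interaction, 11 to 14 for Kyn (11 without DMSO replicate 2 or Kyn replicate 3), 0 to 2 for Kyn with the inhibitor and 3 to 9 for their interaction.

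No pairing by replicate number was detected: in no comparison did every same-numbered pair correlate above 0.1. With 3 libraries per group this check cannot show that the samples were unpaired. With a replicate block, 1 member was lower with the control gRNA, 2 passed for Kyn with the AhR inhibitor and 5 for the interaction of Kyn and inhibitor; the other counts stayed within 1.5 times. The liver columns carry no replicate numbers.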
